A study of Mus musculus with 24 samples.

Results

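The PRAME family encodes leucine-rich repeat proteins, several of which act as substrate-recognition subunits of cullin-2 ubiquitin ligases. In the mouse it has expanded into a large set of genes used in the germ line and the early embryo. The oogenesins *Oog1* to *Oog4* are known as oocyte transcripts, and OOG1 binds the Ras pathway regulator RalGDS. *Pramef12* is known from spermatogonial stem cells. *Pramel6* and *Pramel7* are known from the inner cell mass and embryonic stem cells, where PRAMEL7 directs the cullin-2 ligase to UHRF1, the partner of the maintenance DNA methyltransferase DNMT1. These 7 genes were taken by symbol from the 55471 genes of the annotation used for the files, and each symbol matched a single Ensembl gene. The rule used symbols alone, but the genes were picked with earlier results of these data known.

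SLIM-seq, a low-input form of m6A RNA immunoprecipitation (IP), was applied to MII oocytes, late 1-cell (L1C) embryos and late 2-cell (L2C) embryos, with 3 IP and 3 input libraries per stage. By the study's account the input RNA of a stage shared its batches with the IP RNA, but it was not stated that a replicate number marks a batch. The oocytes came from superovulated wild-type 8-week-old B6D2F1 females (C57BL/6J x DBA/2N) and were freed of cumulus cells with hyaluronidase, and the embryos from matings of such females with B6D2F1 males were cultured in KSOM. In a second experiment, early B6D2F1 zygotes received Cas13d mRNA with 3 crRNAs against *Ythdc1*, which encodes a nuclear m6A reader (KD), or Cas13d mRNA alone (Ctrl), and were harvested at L2C in 3 libraries each. Ctrl embryos therefore lacked any crRNA, and both groups carried Cas13d and an injection that the SLIM-seq embryos did not. The SLIM-seq libraries came from pooled oocytes or embryos, and the number of embryos per KD or Ctrl library was not stated. Nothing in the labels tied the replicates to separate animals, so that the p-values measure the spread between these libraries, which may be technical. Because expression was measured as a share of each library, less RNA per embryo and fewer embryos expressing a gene cannot be told apart, and a lower share need not be a lower amount per embryo.

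The SLIM-seq libraries held 11107400 to 39739900 estimated counts, and the merged KD table held 3276720 to 5463870 counts per library over the part of the genome it covers. All 10 oocyte markers had more than 3 counts in at least 1 library of every group, and their summed level fell from 20351 to 21119 CPM (counts scaled to a common library size) in the MII inputs to 891 to 972 CPM in the L2C inputs, while that of 8 markers of 2-cell embryos rose from 6.49 to 7.37 CPM to 772 to 964 CPM. Of 10 cumulus markers, 7 had more than 3 counts in an MII input, with a summed level of 58.0 to 65.7 CPM there and 4.00 to 5.09 CPM at L2C. No pair of replicates differed by as little as counting error. The lowest chi-square per degree of freedom of any pair was 2.77.

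The 7 genes lie on 3 chromosomes (GRCm38). *Oog4* (chromosome 4, 143437164 to 143450324, minus strand), *Oog3* (144157557 to 144162663, minus), *Oog2* (144190719 to 144196934, plus) and *Pramef12* (144391674 to 144408464, minus) lie in the PRAME-rich stretch of chromosome 4. *Pramel7* (87489087 to 87497093, minus) and *Pramel6* (87506565 to 87510872, plus) are neighbours on chromosome 2, and *Oog1* (87602688 to 87608850, plus) is on chromosome 12. An annotated antisense gene, *Pramef12os*, overlaps *Pramef12*, and reads of the pair cannot be told apart in counts made without strand. As listed, *Pramef12os* had 0 counts in every SLIM-seq library, 6 to 10 counts in the KD libraries and 0 to 1 in the Ctrl libraries. The mature oogenesin transcripts were 73.5 to 78.7% identical to each other over 1757 to 1836 aligned bases, and *Pramel6* was 65.0 to 67.1% identical to them, whereas *Pramef12* and *Pramel7* aligned to the oogenesins only over 81 to 277 bases.

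The bases before the start sites separated the genes in a similar way. RefSeq start sites (GRCm38.p6) were used, and the 150 bases before each of them are shown because 4 of the genes share them closely. They lie at chr12:87602515-87602664 (plus strand) for *Oog1*, chr4:144190567-144190716 (plus) for *Oog2*, chr4:144162652-144162801 (minus) for *Oog3*, chr4:143450325-143450474 (minus) for *Oog4*, chr2:87506415-87506564 (plus) for *Pramel6* and chr2:87492419-87492568 (minus) for *Pramel7*. Capitals mark the words GGGTGTGG, which resembles the CACCC box bound by KLF factors, ACAAAGGG, and the TATA-type word TATATA.
Oog1: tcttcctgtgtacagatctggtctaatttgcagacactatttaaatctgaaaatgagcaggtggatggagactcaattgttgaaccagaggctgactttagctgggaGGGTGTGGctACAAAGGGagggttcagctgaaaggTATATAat
Oog2: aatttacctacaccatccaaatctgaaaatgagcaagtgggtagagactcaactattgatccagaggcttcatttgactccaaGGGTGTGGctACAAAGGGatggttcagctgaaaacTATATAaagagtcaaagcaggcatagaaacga
Oog3: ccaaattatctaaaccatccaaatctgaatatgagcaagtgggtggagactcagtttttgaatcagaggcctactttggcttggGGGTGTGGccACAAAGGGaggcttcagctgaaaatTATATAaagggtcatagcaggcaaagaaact
Oog4: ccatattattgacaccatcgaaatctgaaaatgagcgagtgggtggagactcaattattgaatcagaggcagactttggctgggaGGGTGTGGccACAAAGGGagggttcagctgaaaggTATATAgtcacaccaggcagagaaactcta
Pramel6: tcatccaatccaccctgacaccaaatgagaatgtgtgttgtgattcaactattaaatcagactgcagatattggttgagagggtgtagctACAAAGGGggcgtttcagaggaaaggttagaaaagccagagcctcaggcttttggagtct
Pramel7: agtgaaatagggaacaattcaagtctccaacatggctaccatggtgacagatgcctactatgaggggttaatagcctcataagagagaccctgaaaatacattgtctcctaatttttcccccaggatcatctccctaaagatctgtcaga

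GGGTGTGG stood in all 4 oogenesin windows, beginning 65, 66 and 67 bases before the start of *Oog4*, *Oog3* and *Oog2* and 43 bases before that of *Oog1*. The RefSeq start of *Oog1* lies 23 bases before the start in the annotation of the files, from which the word is 66 bases away. Searched on both strands over 250 bases, GGGTGTGG was held by 3.2% of 32851 promoter windows, ACAAAGGG by 1.46% and TATATA by 5.25%. All 4 oogenesins held each of these 3 words, *Pramel6* held ACAAAGGG alone, and *Pramel7* held none of them. None of the 10 other PRAME family genes with a window held GGGTGTGG or ACAAAGGG, and 2 of them held TATATA. The windows of the oogenesins were 74.5 to 85.1% identical over 221 to 250 aligned positions. The E-box CANNTG, the type of word read by the oocyte factor FIGLA, stood in all 6 windows but also in 66.2% of all windows, and TAATTG, a word read by the oocyte homeobox factor NOBOX, stood in those of *Oog3* and *Oog4* and in 7.17% of all windows. The RefSeq start of *Pramel7* lies 4675 bases inside the gene as the files annotate it. The 3 marked words are ones that the closely alike oogenesin windows share, so their presence in all 4 is no separate finding. Their shares over all windows are background and no test of enrichment. Another word searched stood in 3 of the 6 member windows and in 0 of the 10 other PRAME windows. A further one stood in 0 of the 6 and in 3 of the 10. All these matches are a description of the sequence and not of binding.

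**Figure D1:**
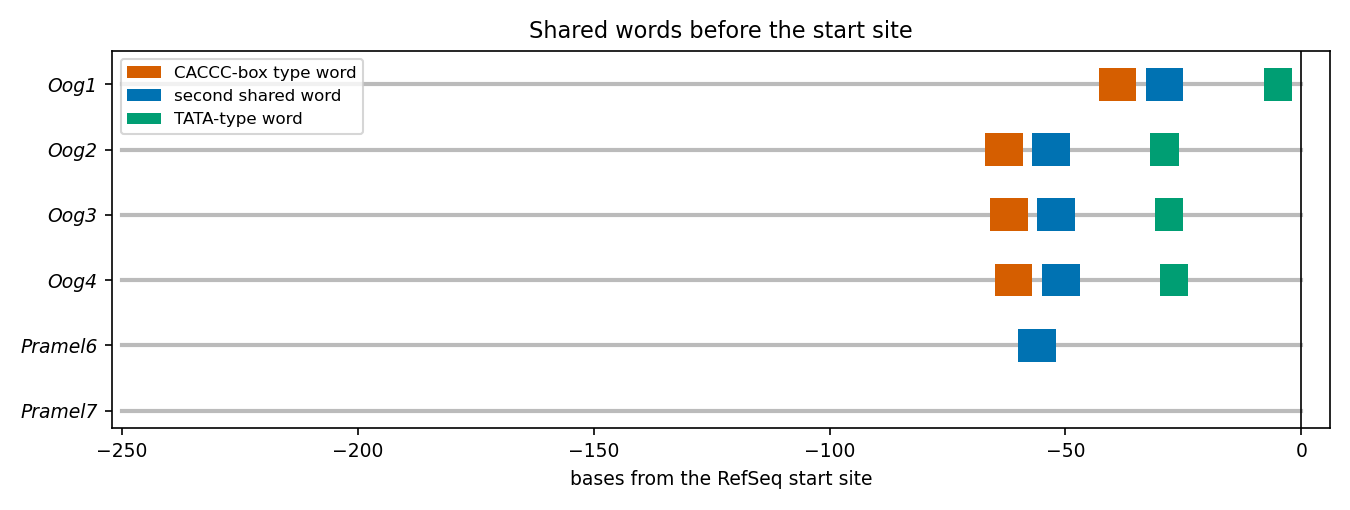
Positions of 3 short words in the 250 bases before the RefSeq start site (x axis, bases; grey line, the window) of the 6 genes with a window. The 3 words keep 1 order and similar spacing in *Oog1* to *Oog4*, *Pramel6* holds the second of them, and *Pramel7* none.

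The stage series first addressed which of these RNAs were maternal stores and which appeared at zygotic genome activation (ZGA). In the inputs, 5 of the 7 genes were maternal RNAs and 2 were absent or nearly so before L2C. *Oog3* was the most abundant at every stage and did not pass the test between any pair of stages. *Oog1*, *Oog2*, *Oog4* and *Pramef12* were lower at L2C than at MII and L1C, and *Pramel6* and *Pramel7* rose from a few counts to between 914 and 5799 counts. From L1C to L2C, 6 of the 7 genes passed the test, 2 higher and 4 lower, beside 82.9% of the 19903 genes tested (44.1% higher, 38.8% lower). The median change of the members was -2.09 on the log2 scale, and that of all genes tested was 0.17.

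*Oog4* had the steepest fall. It stood at 720, 682 and 610 CPM in the MII inputs, at 963, 755 and 603 CPM in the L1C inputs and at 20.2, 14.2 and 21.0 CPM in the L2C inputs. The L2C libraries lay far below all others, and the MII and L1C libraries overlapped. The change from L1C to L2C was -5.38 ± 0.21 (log2, SE; adjusted p = 1.8e-11), with means of 774 ± 181 and 18.5 ± 3.73 CPM (SD, n = 3 each), a 41.9-fold fall.

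*Pramef12* fell earlier. Its inputs held 1250, 916 and 826 CPM at MII, 727, 608 and 696 CPM at L1C and 73.6, 73.3 and 88.6 CPM at L2C, so that the 3 stages did not overlap. The change from MII to L1C was -0.56 ± 0.15 (adjusted p = 0.0066), and that from L1C to L2C was -3.11 ± 0.17 (adjusted p = 3.4e-10). It was the only member that was lower at L1C than at MII by the test. In the fit of all inputs, 4 of the 7 genes were called from MII to L1C, 3 higher and 1 lower, beside 56.2% of all genes tested (31.9% higher, 24.3% lower). *Pramel6* and *Pramel7*, which account for 2 of the 3 higher, were in that fit only through their L2C libraries. With the MII and L1C inputs alone, 5 members could be tested and 2 were called (*Oog2* higher, *Pramef12* lower), beside 59.1% of all genes.

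*Oog2* rose before it fell. It stood at 112, 117 and 94.1 CPM at MII, at 233, 187 and 133 CPM at L1C and at 27.8, 17.1 and 23.8 CPM at L2C. The L1C libraries were all above the MII libraries (0.78 ± 0.20, adjusted p = 0.0044), and the L2C libraries all below both (L1C to L2C -3.003 ± 0.22, adjusted p = 7.9e-09).

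*Oog1* held 1351, 1268 and 1132 CPM at MII, 1552, 1231 and 954 CPM at L1C and 333, 221 and 326 CPM at L2C. MII and L1C overlapped (-0.01 ± 0.18, adjusted p = 0.99), and L2C lay below both, with a change of -2.09 ± 0.19 from L1C (adjusted p = 1.1e-07).

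*Oog3* held 3274, 3270 and 2912 CPM at MII, 4264, 3413 and 2585 CPM at L1C and 3432, 2207 and 3385 CPM at L2C. All 3 stages overlapped. The change from MII to L2C was -0.07 ± 0.19 (adjusted p = 0.74), and that from L1C to L2C was -0.19 ± 0.19 (adjusted p = 0.36). While the other oogenesins dropped, *Oog3* alone thus kept 0.232 to 0.371% of all estimated counts in the L2C inputs, beside 0.278 to 0.313% in the MII inputs.

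*Pramel6* had 0 counts in each of the 3 MII inputs, 4, 6 and 3 counts in the L1C inputs and 1769, 914 and 2664 counts in the L2C inputs. *Pramel7* had 0, 2 and 1 counts in the MII libraries, 15, 11 and 4 in those of L1C and 4223, 2117 and 5799 in those of L2C. The L2C libraries were above all others by orders of magnitude, and the L1C libraries were above MII for both genes at counts close to the limit of detection. In CPM, *Pramel6* reached 59.7, 43.5 and 67.4 and *Pramel7* reached 143, 101 and 147 at L2C. Set against a floor of 3 counts per MII library (0.149 CPM), *Pramel6* was at least 381-fold and *Pramel7* at least 871-fold higher at L2C. The changes from L1C to L2C were 8.09 ± 0.30 for *Pramel6* (adjusted p = 1.0e-10) and 8.10 ± 0.29 for *Pramel7* (adjusted p = 9.0e-12). Neither gene could be tested between MII and L1C with those libraries alone, since both then failed the filter on low counts, so their calls from MII to L1C are those of the fit of all inputs. From MII to L2C, 6 of 7 genes were called, 2 higher and 4 lower, beside 84.6% of all genes (47.5% higher, 37.1% lower).

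**Figure D2:**
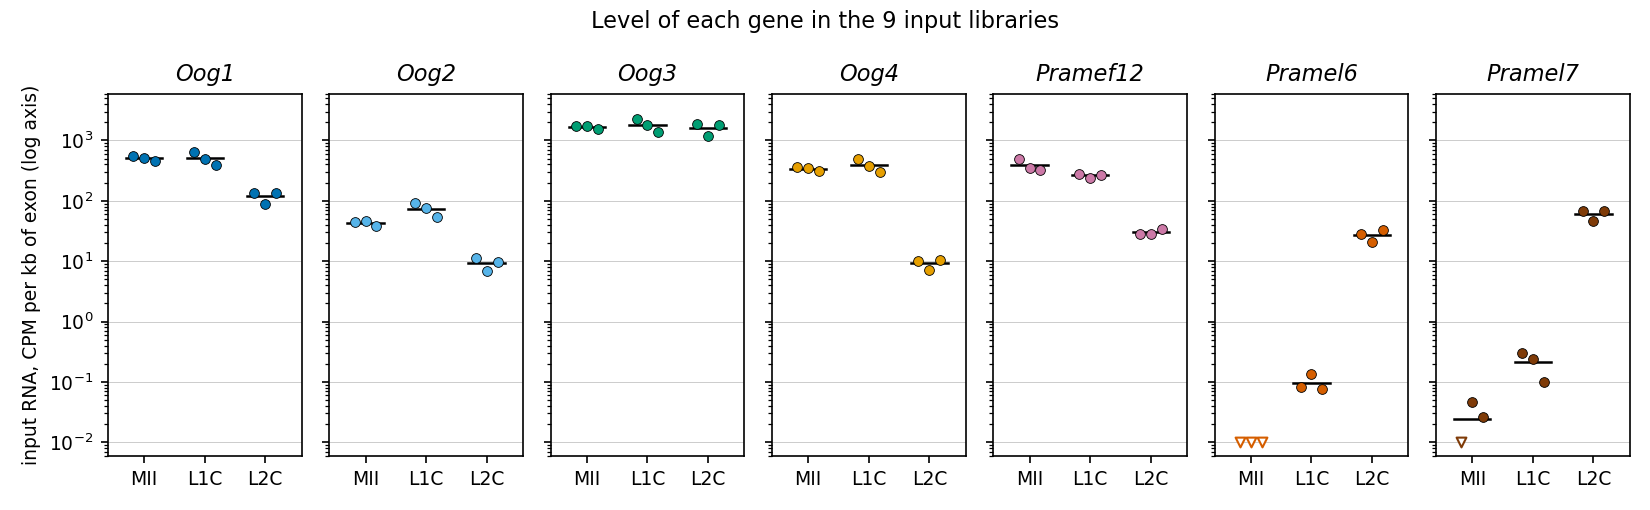
Level of each gene in the 9 input libraries (y axis, CPM per kilobase of exon, log axis; x axis, stage; each point a library, each line the mean of 3). Open triangles at the bottom mark libraries with 0 counts: *Oog3* stays near the top at every stage, *Oog4* falls to between 7.16 and 10.6 at L2C, and *Pramel6* and *Pramel7* appear at L2C.

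Levels of different genes were set side by side per kilobase of annotated exon. At MII the order was *Oog3* (1690 ± 112 CPM per kb), *Oog1* (510 ± 45.2), *Pramef12* (388 ± 86.7), *Oog4* (339 ± 28.2), *Oog2* (43.3 ± 4.78), *Pramel7* (0.024 ± 0.023) and *Pramel6* (0). *Oog1* overlapped *Pramef12*, which overlapped *Oog4*. *Oog3* ranked 16 among 21974 protein-coding genes at MII, 5 at L1C and 6 at L2C, which places an oogenesin among the most abundant mRNAs of the oocyte and of the early embryo. At L1C, *Oog4* (391 ± 91.3) stood above *Pramef12* (263 ± 23.9), with no overlap. At L2C the order had changed to *Oog3* (1613 ± 372), *Oog1* (120 ± 25.5), *Pramel7* (60.9 ± 11.9), *Pramef12* (30.5 ± 3.39), *Pramel6* (27.3 ± 5.86), *Oog4* (9.32 ± 1.88) and *Oog2* (9.24 ± 2.19). *Pramef12* and *Pramel6* overlapped there, as did *Oog4* and *Oog2*, and these neighbours changed places in deposited TPM, which divide by the whole gene span.

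Reads of near-identical copies limit these values. *Oog1* has 4 annotated copies of 95.4 to 99.6% identity (*C87977*, *Gm10436*, *Gm13023* and *Gm2042*), which stood at 310 to 687 CPM in the MII inputs. *Oog2* has *Gm13084* (98.0% identical, 315 CPM at MII and 754 CPM at L1C, more than *Oog2* itself) and *Gm7201* (95.0%, 0.056 CPM at MII), *Oog3* has *Gm4350* (99.3% over 575 bases, 5.01 CPM) and *Gm13103* (93.0%, 86.5 CPM), and *Pramel7* has *Gm5949* (91.4%, listed at 0 at MII). *Oog4*, *Pramef12* and *Pramel6* have no such copy. With the copies added to the member, a choice made after seeing the data, the change from L1C to L2C became -2.44 ± 0.20 for *Oog1*, -4.05 ± 0.23 for *Oog2* and -0.23 ± 0.19 for *Oog3*, each on its side of the threshold as before.

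The genes whose course over the 9 inputs was closest to each member were found among 15246 protein-coding genes outside the members and the PRAME list, by the root mean square difference in centred log2 CPM. For *Oog4* they were *Nlrp4f* (0.148) and *Nlrp4a* (0.232), both oocyte genes of the NLRP family. For *Oog1* they were its own near-identical copy *Gm2042* (0.050) and *Map2k4* (0.119), for *Oog2* *Zfp873* (0.104) and *Ccnb1*, the B-type cyclin of M phase (0.112), and for *Oog3* *Sgip1* (0.115) and *Ctnnal1* (0.123). *Emp2* (0.102) and *Sdha*, a subunit of succinate dehydrogenase (0.130), were closest to *Pramef12*. *Tdpoz5* and *Gm10697*, at an equal distance, were closest both to *Pramel6* (0.262) and to *Pramel7* (0.470).

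Other genes of the family moved strongly over the same stages. Of 30 further PRAME genes in the annotation, 26 could be tested in the inputs. The list includes *C87977*, *Gm13084* and *Gm13103*, which are among the copies of *Oog1*, *Oog2* and *Oog3* named above, so that it is not fully separate from the members. Some of them passed the filter only through L2C, and with the MII and L1C inputs alone 19 could be tested, of which 13 rose and 1 fell from MII to L1C (median 0.90 beside 0.06 for all genes, 59.1% of which were called). From L1C to L2C, 15 of the 26 rose and 11 fell (median 2.21), beside 82.9% of all genes called (44.1% higher, 38.8% lower). Genes that were in this test only through their L2C libraries could hardly do other than rise, and they are part of the count and of the median. Among them *Gm13102* rose from 0.761, 0.371 and 0.323 CPM at L1C to 129, 111 and 137 CPM at L2C, and *Pramel4* from 0.423, 0.139 and 0.431 to 80.6, 61.6 and 75.8 CPM. *C87499* fell from 714, 548 and 504 to 19.7, 14.5 and 22.02 CPM, and *Pramef20* from 115, 88.9 and 91.2 to 4.53, 4.00 and 4.58 CPM. The list thus held genes that fell and genes that rose, as did the 7 genes, but genes of both directions were common among all genes too. The split is therefore no result about the family.

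Of 6 genes of the cullin-2 ligase and its UHRF1 target axis, 3 rose and 2 fell from L1C to L2C, a share close to the 82.9% of all genes called. *Uhrf1* had already fallen from MII to L1C (-0.84 ± 0.13, adjusted p = 8.5e-05), and from L1C to L2C it went from 343, 356 and 447 to 31.1, 33.6 and 31.1 CPM (-3.58 ± 0.14, adjusted p = 2.1e-11). In that step *Dnmt1* fell by 0.68 ± 0.13 on the log2 scale (adjusted p = 2.4e-04). Of the elongin genes, which link substrate receptors to the cullin, *Eloc* rose by 1.94 ± 0.18 on the log2 scale (adjusted p = 1.4e-07), and *Elob*, with at most 2 counts in an L1C input, was at least 33.1-fold higher at L2C (adjusted p = 4.3e-08). *Elob* had a mean of 4.71 CPM in the L2C inputs but of 352 CPM in Ctrl embryos of that stage, which were counted otherwise. Whether its low input counts are a limit of the counting was not tested. Of 5 oocyte transcription factors, 4 fell, among them *Nobox* (-4.01 ± 0.20, adjusted p = 1.5e-10) and *Lhx8* (-2.80 ± 0.12, adjusted p = 5.7e-11), and *Sohlh1*, with at most 4 counts in an L1C input, was higher at 1.42, 1.33 and 1.06 CPM (adjusted p = 4.0e-05).

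The IP libraries addressed which of these RNAs carried m6A. The family did not behave as a unit. *Pramef12* was depleted from the IP at all 3 stages, *Oog1*, *Oog2*, *Oog4* and *Pramel6* were enriched at L2C, and *Oog3* and *Pramel7* did not differ between IP and input at L2C. A log2 IP/input of 0 marks the average RNA of a library after scaling, not an absence of m6A. Each IP library is given below as a ratio to the mean of the 3 inputs of its stage.

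For *Pramef12* the IP libraries stood at 0.106, 0.151 and 0.104 of the input at MII, at 0.204, 0.208 and 0.162 at L1C and at 0.324, 0.193 and 0.290 at L2C. IP and input did not overlap at any stage, and the highest of the 9 ratios was 0.324. The log2 IP/input was -3.05 ± 0.21 at MII (adjusted p = 1.1e-09), -2.39 ± 0.20 at L1C (adjusted p = 4.0e-08) and -1.88 ± 0.20 at L2C (adjusted p = 6.2e-07). The difference between L2C and MII was 1.17 ± 0.27 (adjusted p = 0.0046), so that the depletion was smaller at L2C, while neither L1C against MII (0.67 ± 0.27, adjusted p = 0.16) nor L2C against L1C (0.51 ± 0.27, adjusted p = 0.27) passed.

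*Oog2* was called enriched at L1C and L2C. Its difference from MII was not called at L1C (0.37 ± 0.27, adjusted p = 0.51) or at L2C (0.54 ± 0.27, adjusted p = 0.18). Its IP libraries were at 1.22, 1.05 and 1.47 times the input at MII, at 1.58, 1.77 and 1.47 times at L1C and at 2.03, 1.69 and 1.74 times at L2C. IP and input overlapped at MII (0.32 ± 0.19, adjusted p = 0.21) and were apart at L1C (0.68 ± 0.19, adjusted p = 0.0093) and at L2C (0.86 ± 0.20, adjusted p = 0.0017). Without L1C input 3 the L1C value was 0.49 (adjusted p = 0.064), and the L2C call held with each of the 6 libraries of that stage left out.

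For *Oog1* the MII ratios were 0.819, 0.732 and 0.941. Those of L1C were 1.46, 1.51 and 1.21, and those of L2C reached 2.07, 1.11 and 1.87. All IP libraries of MII were below the mean input and all those of L1C and L2C above it, although IP and input libraries overlapped at each stage. The log2 IP/input was -0.27 ± 0.21 (adjusted p = 0.36), 0.48 ± 0.22 (adjusted p = 0.095) and 0.75 ± 0.22 (adjusted p = 0.0087). The difference of L2C from MII passed (1.02 ± 0.30, adjusted p = 0.023). The L2C call was lost without L2C input 2 (0.57, adjusted p = 0.061) or L2C IP 1 (0.57, adjusted p = 0.056), and *Oog1* was called at L1C without L1C input 1 (0.67, adjusted p = 0.033), with no filter on low counts (0.48, adjusted p = 0.0065), in DESeq2 (0.52, adjusted p = 0.043), with the replicate number as a block (0.50, adjusted p = 0.019) and with its copies added (0.55, adjusted p = 0.045). The difference was lost without MII input 1 (0.94, adjusted p = 0.057), MII IP 2 (0.93, adjusted p = 0.059), L2C input 2 (0.83, adjusted p = 0.068), L2C IP 1 (0.84, adjusted p = 0.068) or L2C IP 3 (0.94, adjusted p = 0.059).

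For *Oog4* the MII libraries had ratios of 0.931, 0.872 and 1.01, beside 1.54, 1.59 and 1.24 in those of L1C and 1.65, 1.196 and 1.62 in those of L2C. The embryo IP libraries were all above the mean input, but at L1C the groups overlapped, with the lowest IP library at 1089 CPM and the highest input at 1103 CPM on the scale of the fit of IP and input. They overlapped at MII too and did not at L2C. IP/input was -0.09 ± 0.18 at MII (adjusted p = 0.75), 0.54 ± 0.18 at L1C (adjusted p = 0.023) and 0.58 ± 0.18 at L2C (adjusted p = 0.016). Both calls were close to the threshold. At L1C the call was lost without input 2 (0.52, adjusted p = 0.067), input 3 (0.38, adjusted p = 0.13), IP 1 (0.45, adjusted p = 0.096) or IP 2 (0.47, adjusted p = 0.086), and at L2C without input 2 (0.41, adjusted p = 0.10), IP 1 (0.49, adjusted p = 0.067) or IP 3 (0.52, adjusted p = 0.061). The difference of L1C from MII (0.63 ± 0.25, adjusted p = 0.15) passed without L1C input 1 (0.82, adjusted p = 0.044) and that of L2C from MII (0.67 ± 0.25, adjusted p = 0.071) without L2C IP 2 (0.79, adjusted p = 0.033). Both also passed with no filter on low counts, and the latter with the replicate block (0.67, adjusted p = 0.028).

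*Oog3*, the most abundant of the 7, was below input at MII, with ratios of 0.631, 0.538 and 0.741 and no overlap (-0.65 ± 0.20, adjusted p = 0.015). At L1C the ratios were 0.846, 0.897 and 0.751 (-0.27 ± 0.20, adjusted p = 0.33), and at L2C they were 1.12, 0.736 and 1.05 (-0.04 ± 0.20, adjusted p = 0.89), with overlap at both stages. The MII call was lost without MII IP 2 (-0.54, adjusted p = 0.069) and with scaling to library size (-0.41, adjusted p = 0.10).

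*Pramel6* and *Pramel7* were too rare at MII for any ratio, with 0 counts in all 6 libraries and with at most 2 counts in a library, respectively. *Pramel6* had 17, 24 and 18 counts in the L1C IP libraries beside 4, 6 and 3 in the inputs (1.54 ± 0.41, adjusted p = 0.0086), which rests on few counts but held with each library of the stage left out. At L2C its ratios were 1.59, 1.28 and 1.55 with no overlap (0.56 ± 0.18, adjusted p = 0.021), a call that was lost without L2C input 2 (0.38, adjusted p = 0.11), IP 1 (0.50, adjusted p = 0.074) or IP 3 (0.52, adjusted p = 0.071). *Pramel7*, its neighbour with the same course in the inputs, had L2C ratios of 1.02, 0.864 and 0.985, and IP and input overlapped (-0.07 ± 0.19, adjusted p = 0.80). At L1C it had 11, 11 and 11 counts in the IP and 15, 11 and 4 in the inputs (-0.47 ± 0.42, adjusted p = 0.42).

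**Figure D3:**
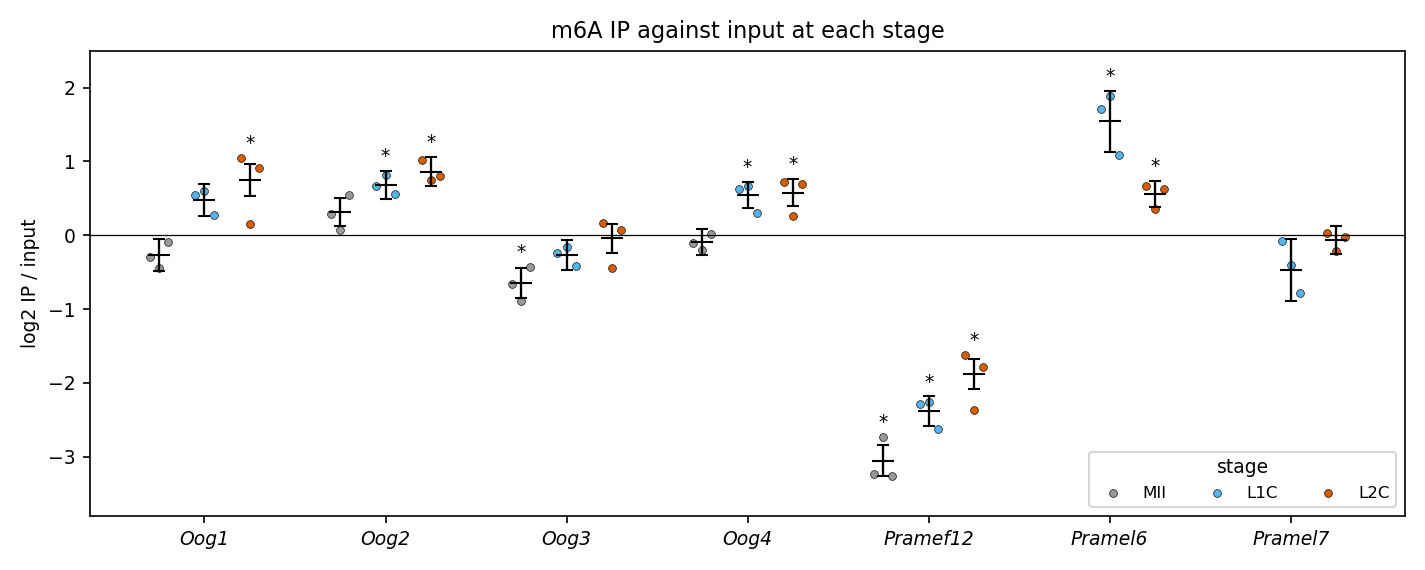
log2 IP/input of each gene at MII, L1C and L2C (points, each IP library against the mean of the 3 inputs of its stage; bars, fitted value ± SE; asterisk, adjusted p under 0.05). *Pramef12* lies between -3.27 and -1.63 in every IP library, and *Oog1* and *Oog4* lie near or below 0 at MII and above 0 in the embryo; *Pramel6* and *Pramel7* had too few counts at MII to be drawn.

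Of the 7 genes, 5 had a ratio at MII, where 2 were called, both lower in the IP, beside 38.6% of the 21950 genes tested (17.7% higher, 21% lower). At L1C, 4 were called, 3 higher and 1 lower, beside 33.9% (15.8% and 18.2%), and at L2C 5 were called, 4 higher and 1 lower, beside 44% (22% and 22%). The median IP/input was -0.27 over the 5 members with a ratio at MII, and 0.48 and 0.56 over all 7 at L1C and L2C, and that of all genes was 0, 0.07 and 0.09. The study tagged genes in DESeq2 by more than 1 count in the inputs, IP/input above 0 and a p under 0.05, read here as unadjusted. It added a clause for genes without a p and a requirement across replicates. With the first 3 thresholds alone, applied to the edgeR fit, the counts were 0 of 7 at MII, 4 of 7 at L1C and 4 of 7 at L2C, beside 19.5%, 18.9% and 24.3% of the genes tested. None of the members was called in the difference of L1C from MII in edgeR, where 7.33% of all genes were (3.13% higher, 4.21% lower), or in that of L2C from L1C, where 9.47% were (5% higher, 4.47% lower), and 2 were in that of L2C from MII, beside 20.3% (11.1% higher, 9.21% lower). At an unadjusted p under 0.05, 3 members (*Oog1*, *Oog4* and *Pramef12*) passed in the first and 1 (*Pramel6*) in the second. DESeq2 called 0 members in both, and the edgeR fit with the replicate block called *Oog1* in the first (0.77, adjusted p = 0.049). Scaling to library size in place of the trimmed mean raised the median IP/input of all genes by 0.20, 0.30 and 0.25 at the 3 stages and moved the share of higher genes among those called from 45.7 to 61.7%, from 46.5 to 70.9% and from 49.98 to 67.6%. Under that scaling the uncalled values of *Oog4* at MII, of *Oog3* at L1C and L2C and of *Pramel7* at L2C turned positive, and *Oog2* passed at MII (0.56, adjusted p = 0.025) and *Oog1* at L1C (0.78, adjusted p = 0.0062). Messenger RNAs of the mitochondrial genome were higher in the IP too, 6 of 7 at MII, 7 of 7 at L1C and 6 of 7 at L2C, with medians of 1.53, 1.52 and 1.52, and their part in the ratios of the 7 genes was not tested.

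The letters GGAC form the core of the sequence at which m6A is written. *Pramef12*, the gene depleted from the IP, held 6 copies of GGACT in its 2460-base transcript, 2.44 per kb, beside a median of 1.01 per kb over 21822 protein-coding genes. *Pramel7* held 4 (2.15 per kb) and *Oog1* 4 (1.63 per kb). *Oog4* held 2 (1.01 per kb), and *Oog2*, *Oog3* and *Pramel6* held 1 each (0.522, 0.536 and 0.561 per kb). For the shorter word GGAC, *Oog3* had 1.07 per kb and *Pramef12* 4.88 per kb, beside a median of 3.94. The order of these densities was not the order of IP/input.

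Of 27 other PRAME genes tested in the IP, 7 passed at MII, all lower, 3 were higher and 4 lower at L1C, and 7 were higher and 1 lower at L2C. The shares of all genes called were 38.6%, 33.9% and 44%. The median was -0.47 over the 22 of them with a ratio at MII, and -0.11 and 0.33 over all 27 at L1C and L2C, beside 0, 0.07 and 0.09 over all genes. *Pramef8* was lower in the IP at all 3 stages (-1.79 ± 0.15, -1.19 ± 0.14 and -1.10 ± 0.14, adjusted p = 1.2e-08, 2.8e-06 and 5.8e-06). *C87977* (a copy of *Oog1*), *C87499* and *Gm13102* were enriched at L2C (0.84 ± 0.21, 0.60 ± 0.16 and 0.65 ± 0.19, adjusted p = 0.0029, 0.0051 and 0.0084). The difference of L2C from MII needs a ratio at MII, which 22 of the 27 had. In it 7 were called, all higher, beside 11.1% of all genes called higher. Of the UHRF1 axis, *Uhrf1* was lower in the IP at MII, L1C and L2C (-1.81 ± 0.13, -1.49 ± 0.13 and -1.07 ± 0.13, adjusted p = 2.2e-09, 5.5e-08 and 3.4e-06), and *Dnmt1* went from enriched at MII (1.85 ± 0.12, adjusted p = 6.5e-10) to depleted at L2C (-1.80 ± 0.12, adjusted p = 3.1e-09).

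The KD experiment compared L2C embryos with less *Ythdc1* RNA with Ctrl. *Ythdc1* itself stood at 1080, 1098 and 994 CPM in Ctrl and at 523, 541 and 519 CPM in KD, all below Ctrl (-1.004 ± 0.06, adjusted p = 1.3e-10), a partial knockdown. Since Ctrl received no crRNA, an effect of the crRNAs and one of less *Ythdc1* cannot be told apart. Of the 7 genes, *Oog4*, *Oog3*, *Oog2* and, less surely, *Oog1* were lower in KD, *Pramel6* and *Pramel7* were higher, and *Pramef12* did not pass. The groups differed broadly. Beside these 6 of 7 genes, 70.9% of the 7433 genes of the merged table were called (33.5% higher, 37.4% lower), a share close enough that the number of members called is no result about them. *Oog1*, on chromosome 12, lies outside that table and was fitted over the whole annotation in 5 libraries (without KD replicate 3), in which 66.8% of 17074 genes were called (30.5% higher, 36.4% lower) and 14.4% passed the thresholds of the study, given below, in the higher direction and 24.5% in the lower.

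*Oog4* changed most. It stood at 88.0, 87.1 and 76.2 CPM in Ctrl and at 20.6, 20.04 and 20.3 CPM in KD, with a wide gap between the groups (-2.05 ± 0.12, adjusted p = 8.2e-11), a 4.12-fold fall. It was the only member past the thresholds of the study for KD, applied here to the edgeR fit (p under 0.05, read here as unadjusted, and a log2 change above 1 in size). Of all genes, 22.5% passed these in the lower direction and 14.7% in the higher.

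*Oog3* stood at 8924, 8777 and 7197 CPM in Ctrl and at 5852, 5382 and 5645 CPM in KD (-0.56 ± 0.07, adjusted p = 9.4e-07), and *Oog2* at 149, 157 and 116 CPM in Ctrl and at 108, 90.7 and 115 CPM in KD (-0.43 ± 0.11, adjusted p = 0.0026). The groups did not overlap for either gene, although the highest KD library of *Oog2* (114.6 CPM) lay just under its lowest Ctrl library (115.9 CPM). *Oog1* stood at 164, 158 and 127 CPM in Ctrl and at 131 and 118 CPM in KD. Its groups overlapped (-0.27 ± 0.11, adjusted p = 0.035), and the call was lost without KD replicate 2 (-0.19, adjusted p = 0.25), which leaves 1 KD library that is assumed to vary like the Ctrl libraries, without Ctrl replicate 1 (-0.21, adjusted p = 0.13), without Ctrl replicate 2 (-0.24, adjusted p = 0.11) and in DESeq2 (-0.25, adjusted p = 0.074). With its copies added, a choice made after seeing the data, *Oog1* was at -0.96 ± 0.09 (adjusted p = 1.7e-07). The copies moved unequally. *C87977* and *Gm13023* had mean levels of 483 and 889 CPM in Ctrl and 142 and 279 CPM in KD on the scale of the merged table. On that of the whole annotation *Gm10436* had 389.8 and 229 CPM, and *Gm2042*, the closest copy, had 84.8 and 75.1 CPM.

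*Pramel6* stood at 153, 146 and 120 CPM in Ctrl and at 238, 200 and 245 CPM in KD (0.70 ± 0.10, adjusted p = 4.1e-06), and *Pramel7* at 582, 579 and 499 CPM in Ctrl and at 686, 663 and 721 CPM in KD (0.32 ± 0.07, adjusted p = 5.0e-04). Every KD library was above every Ctrl library for both genes. *Pramef12* stood at 83.6, 101 and 83.7 CPM in Ctrl and at 98.2, 87.4 and 90.8 CPM in KD, overlapping (0.04 ± 0.10, adjusted p = 0.71), and its sign turned with scaling to library size (-0.08).

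**Figure D4:**
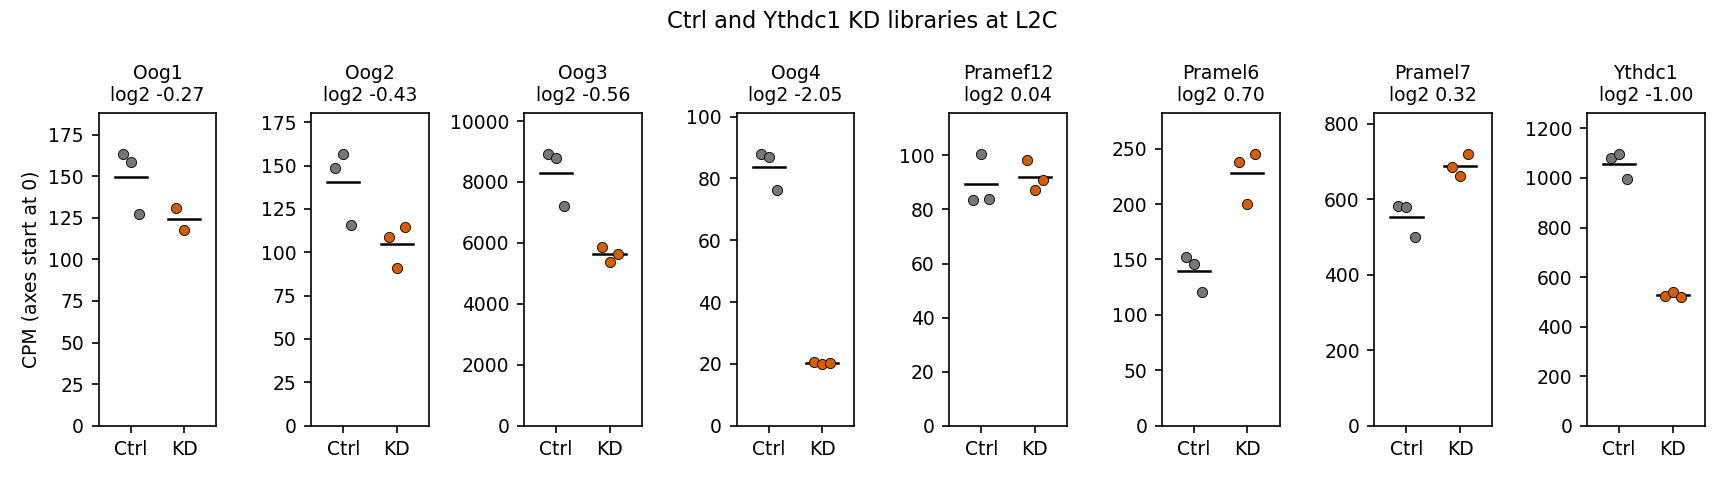
CPM of each gene and of *Ythdc1* in Ctrl and KD libraries at L2C (each point a library, each line the mean; every axis starts at 0; *Oog1* has 2 KD libraries and is scaled over the whole annotation). *Oog4* falls from between 76.2 and 88.0 to between 20.04 and 20.6 in KD, and *Pramel6* and *Pramel7* rise.

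Markers moved with these groups. The summed level of the 10 oocyte markers was 1852 to 1874 CPM in Ctrl and 1086 to 1204 CPM in KD, with 6 of 10 lower and 2 higher. That of the 8 markers of 2-cell embryos was 3358 to 3630 CPM in Ctrl and 1051 to 1185 CPM in KD, with all 8 lower, and of 10 cumulus markers 3 had more than 3 counts in a Ctrl library and 2 in a KD library. Beside these counts, 70.9% of the genes of the merged table were called (33.5% higher, 37.4% lower), so that the number of oocyte markers called is near the share of all genes. The zygotic genes *Pramel6* and *Pramel7* thus went against the 2-cell markers. The part of embryo stage in these differences was not tested.

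Of 24 further PRAME genes tested in KD, 17 were lower and 3 higher, with a median of -0.89 beside -0.06 for all genes, 70.9% of which were called. *Pramef25* fell from 283, 262 and 223 CPM in Ctrl to 40.2, 39.0 and 39.9 CPM in KD (-2.69 ± 0.10, adjusted p = 5.5e-13), and *Gm13078* from 971, 979 and 849 to 307, 271 and 275 CPM (-1.72 ± 0.07, adjusted p = 1.5e-12). *BC080695* (-2.91 ± 0.14, adjusted p = 5.1e-12) and *Gm13103*, the partial copy of *Oog3* (-2.90 ± 0.14, adjusted p = 4.7e-12), fell more than any of the 7 members, as did *Pramef25*. These 4 genes are the 4 with the smallest p in the list. *Gm13103* was maternal like *Oog4*, at 79.6 to 91.7 CPM in the MII inputs and 8.33 to 14.2 CPM at L2C, whereas *Pramef25*, *Gm13078* and *BC080695* were at 1.01 CPM or less at MII and at 31.0 to 76.9 CPM at L2C. Of the cullin-2 and UHRF1 list, 4 rose and 2 fell in KD, beside 70.9% of all genes called in the merged table and 66.8% over the whole annotation. *Cul2*, the scaffold of the ligase, rose from 23.2, 23.4 and 19.7 CPM to 70.4 and 68.4 CPM in the 5 libraries that cover it (1.64 ± 0.11, adjusted p = 6.1e-09), and *Eloc* rose by 0.93 ± 0.06 (adjusted p = 5.0e-10).

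The change from L1C to L2C and the change in KD come from separate libraries. Side by side, they were -5.38 and -2.05 for *Oog4*, -3.003 and -0.43 for *Oog2*, -2.09 and -0.27 for *Oog1*, -0.19 and -0.56 for *Oog3*, -3.11 and 0.04 for *Pramef12*, 8.09 and 0.70 for *Pramel6* and 8.10 and 0.32 for *Pramel7*. With its copies added, *Oog2* was at -4.05 and -0.43.

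**Figure D5:**
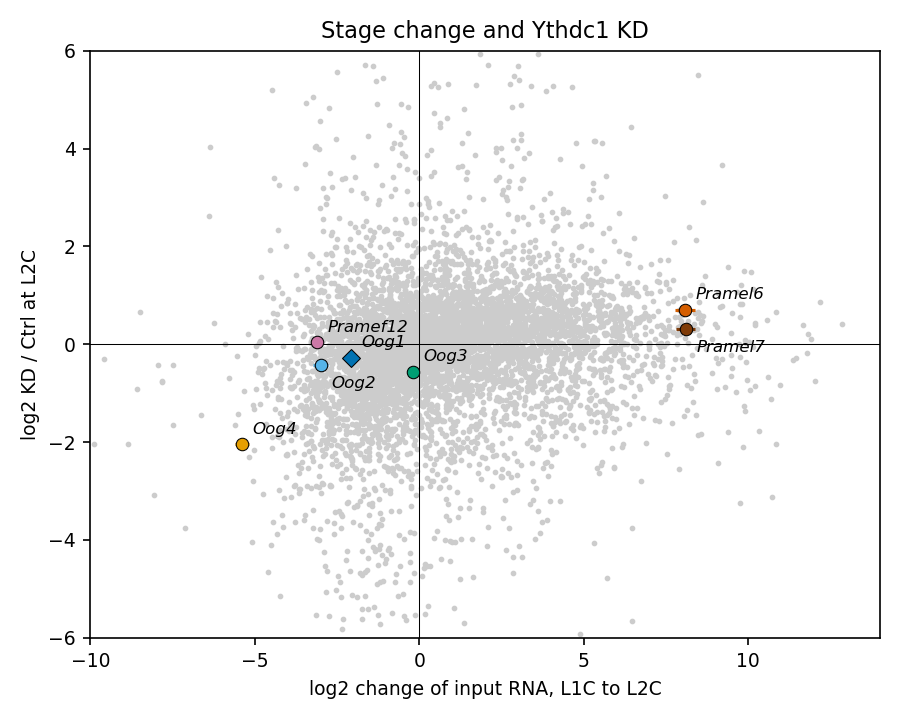
log2 change of input RNA from L1C to L2C (x axis) and log2 KD/Ctrl at L2C (y axis) of 6511 genes tested in both (grey) and of the 7 members (coloured, ± SE; *Oog1* as a diamond, from the fit over 5 libraries). Genes beyond the axes are not drawn; *Oog4* is the member lowest on both axes, and *Pramel6* and *Pramel7* are highest on both.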

How the data were processed

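The authors trimmed reads with Trimmomatic. For SLIM-seq they deposited kallisto estimated counts and TPM per library against whole gene spans of GRCm38, introns included. For KD they aligned with HISAT2 (mm10) and deposited featureCounts counts, made without strand and without multi-mapping or overlapping reads. The deposited TPM, computed by the authors, were used only for the order of levels.

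Estimated counts were rounded. Genes were filtered with filterByExpr, TMM-scaled and tested in edgeR 4.0.16 (R 4.3.3) with the quasi-likelihood test and Benjamini-Hochberg adjustment over all genes at 0.05. One fit covered the 9 inputs, 1 the 18 SLIM-seq libraries (with interaction terms) and 1 the 6 KD libraries. CPM use the same scaling. The merged KD table covers 25739 genes, 37.5 to 39.0% of the counts of the 5 libraries whose per-library files are whole. *Oog1* and other genes outside it came from the per-library files of 5 libraries, since that of KD replicate 3 ends early. CPM of the 2 sets are not on 1 scale. Sequences were compared in Biopython 1.88 (Python 3.11.15). *Pramef12* has no promoter window here.

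The text names the 7 members, *Ythdc1*, at most 4 genes by smallest p per list and comparison, the 2 genes nearest each member and the near-identical copies (over 90% identity, at least 300 bases). Members and lists were chosen with earlier results of these data known. Alternatives were library-size scaling, no filter, DESeq2 1.42.0, fewer libraries, the replicate block, each library left out and stricter calls. The fits were tested on simulated data.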

Additional observations from a re-analysis of the deposited data

Results flagged for a closer look

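The log2 IP/input of *Pramef12* differed between L2C and MII by 1.17 ± 0.27 (edgeR quasi-likelihood test of the interaction, adjusted p = 0.0046), from -3.05 at MII to -1.88 at L2C, and the difference stayed between 0.95 and 1.36 with each library left out in turn.

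That of *Oog1* differed between the same stages by 1.02 ± 0.30 (adjusted p = 0.023), from -0.27 at MII to 0.75 at L2C. With each library left out it lay between 0.83 and 1.24, and 5 of the 12 omissions ended the call.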

How the results depend on the processing

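Directions and calls held for most values of the members (798 kept both, 24 lost a call, 17 gained one and 31 changed sign). Asking for a log2 change above 1 in size left 2 members called from MII to L1C, *Pramel6* and *Pramel7*, which passed the filter on low counts only through their L2C libraries, and 1, 2 and 1 in the IP at MII, L1C and L2C, and 1 in KD. The thresholds of the study, applied to the edgeR fits, left 0 at MII and 1 in KD. Fitting only the libraries compared left 2 from MII to L1C. With no filter, 3 members were called in the difference of L1C from MII and 4 in that of L2C from MII. With each library left out, the members called numbered 1 to 2, 2 to 5 and 2 to 5 in the IP at the 3 stages, and 0 to 1 and 1 to 3 in the differences of L1C and L2C from MII. The cause was not tested.

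The values that changed sign passed the test neither as reported nor in the setting that turned them. With library-size scaling they were *Oog1* from MII to L1C (0.0468), *Oog3* from MII to L2C (0.0798), *Oog4* in the IP at MII (0.15), *Oog3* at L1C (0.0369) and L2C (0.21), *Pramel7* at L2C (0.19), *Oog4* in L2C against L1C (-0.0144) and *Pramef12* in KD (-0.0795). With DESeq2 they were *Oog3* from MII to L2C (0.0149) and *Oog4* in L2C against L1C (-0.0174), and with no filter the latter (-0.00182). With only the libraries compared they were *Oog1* from MII to L1C (0.00673) and, in L2C against L1C, *Oog2* (-0.00698) and *Oog4* (-0.15), and with copies added *Oog1* from MII to L1C (0.17). With a library left out, *Oog1* and *Oog3* from MII to L1C ran from -0.19 to 0.15 and from -0.0667 to 0.28, *Oog3* from MII to L2C from -0.18 to 0.10, *Oog3* and *Pramel7* in the IP at L2C from -0.24 to 0.12 and from -0.24 to 0.0230, and *Oog2* and *Oog4* in L2C against L1C from -0.0385 to 0.36 and from -0.16 to 0.19.

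Replicate numbers are shared by the groups, but same-numbered libraries did not deviate together (correlations from -0.15 to 0.13). With the replicate block, 1 member (*Oog1*, 0.77, adjusted p = 0.049) was called in L1C against MII, 5 in the IP at L1C and 3 in L2C against MII, the other counts of members called did not change, and *Ythdc1* stood at -1.002. Library-size scaling moved the higher share of calls in L1C against MII from 42.6 to 53.3%, and shifted the median of all genes by 0.14 from MII to L2C and by -0.12 in KD. DESeq2 shifted it by 0.13 from L1C to L2C and by 0.17 from MII to L2C. At 0 to 2 counts per MII library, *Pramel6* and *Pramel7* allowed no IP ratio.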
